A study of Homo sapiens with 6 samples.

Results

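The BCL2 family genes described here are 10 regulators of apoptosis, taken by gene symbol from the 17602 genes of the SR2211 tables, the 16293 of the XY011 tables and the 22642 of the ENZ tables. They were 3 protective genes (BCL2, BCL2L1 and MCL1), 2 effector genes (BAX and BAK1) and 5 BH3-only genes (BID, BIK, BBC3, PMAIP1 and BCL2L11). All 10 were listed in all 6 libraries. The libraries came from C4-2B, a bone-metastatic prostate cancer line derived from LNCaP, grown in RPMI with mostly charcoal-stripped serum, which is poor in androgen. Each of 3 experiments had 1 vehicle and 1 treated library, collected after 48 h of vehicle, of SR2211 at 5 µM, of XY011 at 5 µM or of enzalutamide (ENZ) at 20 µM. SR2211 is an inverse agonist of the nuclear receptor RORγ, XY011 is known here by its code name, and ENZ is an androgen receptor antagonist used against prostate cancer. All 6 libraries are of 1 line, so they stand for no other prostate cancer. Titles and agents gave the groups, whereas the extraction protocol of the first 2 experiments names another code in place of XY011 and that of the ENZ pair names SR2211.

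Proteins of this family decide whether the outer membrane of mitochondria is opened, the step that commits a cell to the intrinsic route of apoptosis. Protective members (BCL2, BCL-XL from BCL2L1, and MCL1) hold the effectors BAX and BAK in check. BH3-only proteins sense stress and either neutralise the protective members or activate the effectors, after which cytochrome c leaves the mitochondria and caspases are activated. Much of this control acts on the proteins (cleavage, phosphorylation, degradation, location), which messenger RNA levels do not show.

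Expression was measured by RNA-seq and deposited as RPKM in the SR2211 experiment and FPKM in the others, both read or fragment numbers per kilobase of gene, scaled to the mapped total of the library. Levels can therefore be compared between genes of a library, but each experiment was normalised separately. The SR2211 pair held 8.20 M mapped reads in vehicle and 8.16 M with SR2211, read back from the values, and the depth of the other pairs is unknown. Prostate epithelium markers were all listed at 1 or more in each experiment (8 of 8). Their summed level went from 2642 to 945 RPKM with SR2211, from 2645 to 1033 FPKM with XY011 and from 4985 to 3041 FPKM with ENZ. Endothelial markers were all below 1 where listed, immune markers summed to at most 6.42, and fibroblast markers summed to at most 5.82 outside the ENZ experiment. There they went from 29.1 to 45.5 FPKM, with COL1A1, a collagen gene, from 14.1 to 34.8 and DCN, the decorin gene, from 8.94 to 4.34. The part of these markers in the results was not tested.

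**Figure D1:**
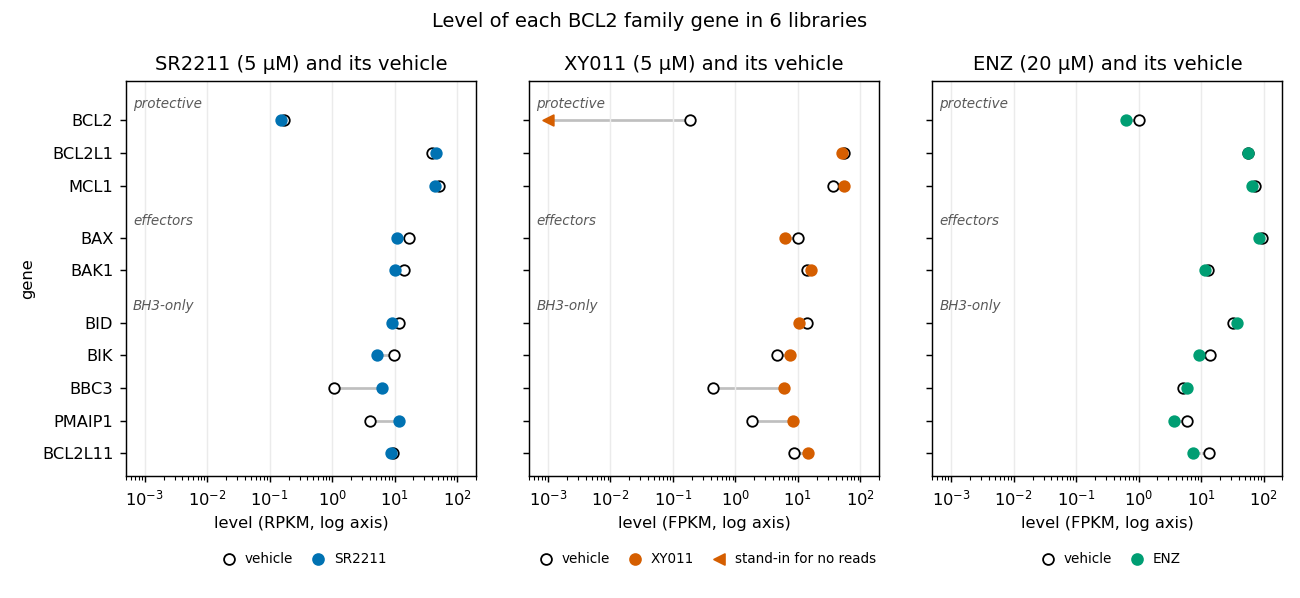
Level of each of the 10 genes in each library on a log axis (RPKM for SR2211, FPKM for XY011 and ENZ), with open points for vehicle and filled points for the treated library. BBC3 and PMAIP1 are far to the right of their vehicles with SR2211 and XY011, where BBC3 went from 1.05 to 6.21 RPKM and from 0.440 to 5.95 FPKM, and BCL2 is the lowest gene in every library.

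BBC3 and PMAIP1 were the members that stood higher with both SR2211 and XY011, and no member stood lower by the same size. Here higher or lower means that log2((treated + 1)/(vehicle + 1)) was at least 1 in size, a scale that understates the change of low genes. Genes at 1 or more in either library were tested. With 1 library per group these calls have no replicate check and no p-value. By this rule 2 of the 9 members tested were higher with SR2211, where 5.12% of all 12170 genes were higher and 5.78% lower (10.9% either way). With XY011 2 of 9 were higher, against 7.6% of 12639 genes higher and 13.2% lower (20.8% either way). After quantile scaling of that pair, the calls over all genes were 1245 higher and 1255 lower rather than 961 and 1666, and after centring on the median gene 1282 and 1305. With ENZ 0 of 10 were called, against 3.67% of 19269 genes higher and 4.69% lower (8.37% either way). BCL2 was not tested with SR2211 and XY011, being below 1 in those 4 libraries. The median log2 change of the tested members was -0.23 with SR2211, 0.58 with XY011 and -0.16 with ENZ, beside -0.07, -0.14 and -0.02 over all genes.

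BBC3 (Entrez gene 27113) encodes PUMA, a BH3-only protein that binds every main protective member and is a known target of CHOP and FOXO3. It stood at 1.05 RPKM in vehicle and 6.21 with SR2211, a log2 change of 1.81. In the XY011 experiment it went from 0.440 to 5.95 FPKM, a log2 change of 2.27. There it passed the filter of 1 only through the treated library. The ENZ pair had 5.10 FPKM with vehicle and 5.95 with the drug (log2 0.19). Thus BBC3 stood well above its own vehicle with SR2211 and XY011, and near it with ENZ.

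PMAIP1 (gene 5366) encodes NOXA, a small BH3-only protein that binds chiefly MCL1. Its level was 4.06 RPKM in vehicle and 11.7 with SR2211 (log2 1.33), and 1.85 and 8.19 FPKM in the XY011 experiment (log2 1.69). With ENZ it was at 3.71 FPKM, below its vehicle at 5.89 (log2 -0.55). In these bulk samples, more cells expressing a gene and more RNA per cell cannot be told apart.

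Since both genes were higher with SR2211 and with XY011, their promoters are shown as RefSeq gives them (build GRCh38.p14, 250 bases before the listed start and 50 from it). The table held 8 of the 10 members, MCL1 and BIK not among them. Capitals mark matches on either strand to 3 motifs, the cyclic AMP response element half-site TGACGT, the ATF4 and C/EBP core TGATGNAA and the AP-1 site TGACTCA. The BBC3 window lies on the minus strand at chr19:47232618-47232917 and that of PMAIP1 on the plus strand at chr18:59899746-59900045.
BBC3: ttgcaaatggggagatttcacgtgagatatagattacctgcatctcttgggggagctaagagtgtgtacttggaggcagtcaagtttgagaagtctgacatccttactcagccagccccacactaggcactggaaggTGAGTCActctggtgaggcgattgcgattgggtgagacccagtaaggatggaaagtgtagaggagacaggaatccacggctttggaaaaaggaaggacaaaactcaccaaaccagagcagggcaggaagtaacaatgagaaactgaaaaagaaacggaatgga
PMAIP1: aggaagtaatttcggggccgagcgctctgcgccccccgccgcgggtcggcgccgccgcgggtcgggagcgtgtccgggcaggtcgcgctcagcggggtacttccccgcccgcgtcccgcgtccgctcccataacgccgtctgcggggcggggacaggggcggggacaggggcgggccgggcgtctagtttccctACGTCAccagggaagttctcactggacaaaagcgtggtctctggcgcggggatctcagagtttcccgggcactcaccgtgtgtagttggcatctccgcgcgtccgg
The BBC3 window held 1 match to the AP-1 site, 113 bases before the start, and the PMAIP1 window 1 half-site of the cyclic AMP response element, 56 bases before it. The windows shared no motif. Among 35116 promoters of that length, 4.95% held the AP-1 letters, 7.98% the TGACGT half-site and 3.62% the ATF4 and C/EBP core. Matches of this kind are thus not particular to these genes. The windows of the other 6 members held no match to these motifs. A match describes letters, and whether a factor was bound there was not measured.

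The 3 other BH3-only genes did not pass the size rule with any compound. BCL2L11 (gene 10018) encodes BIM, which can engage all protective members and activate BAX directly. It was level with SR2211, at 9.43 and 8.89 RPKM, while with XY011 it went from 8.76 to 14.6 FPKM (log2 0.67) and with ENZ from 13.5 to 7.29 FPKM (log2 -0.80). Its change was thus positive with XY011, negative with ENZ and very small with SR2211 (log2 -0.08). BIK (gene 638), whose protein sits mainly at the endoplasmic reticulum, went from 9.72 to 5.20 RPKM with SR2211 (log2 -0.79). It went from 4.54 to 7.47 FPKM with XY011 (log2 0.61) and from 13.96 to 9.17 FPKM with ENZ (log2 -0.56). BID (gene 637) links death receptors to mitochondria once caspase 8 has cleaved its protein. It was at 11.8 and 8.89 RPKM in the SR2211 pair, 13.8 and 10.3 FPKM in the XY011 pair and 32.8 and 37.2 FPKM in the ENZ pair. Its log2 changes, -0.37, -0.39 and 0.18, were small beside those of BBC3.

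**Figure D2:**
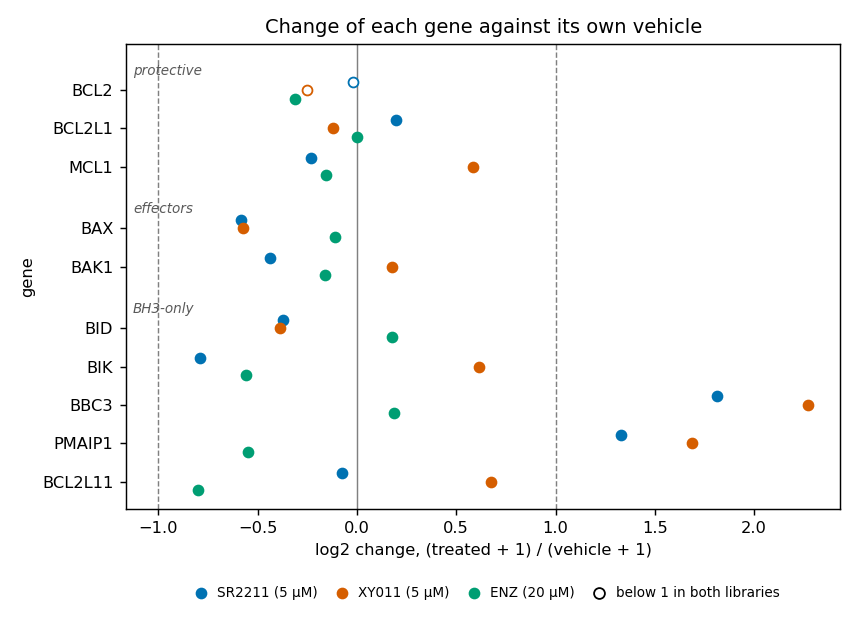
Log2 change of each gene against the vehicle of its own experiment, with filled points for genes at 1 or more in either library and dashed lines at the size rule of 1 in either direction. The SR2211 and XY011 points of BBC3 (1.81 and 2.27) and PMAIP1 (1.33 and 1.69) are the only ones beyond a dashed line, and every ENZ point lies between them.

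Among the 3 protective members, BCL2L1 and MCL1 carried nearly all of the level and BCL2 very little. BCL2 (gene 596), the founding member, was at 0.169 RPKM in vehicle and 0.151 with SR2211. The XY011 vehicle had 0.190 FPKM, and with XY011 the gene was listed at 0.001, which marks genes without reads, so no ratio is given. The ENZ pair had 1.02 and 0.631 FPKM. BCL2 was the lowest of the 10 genes in all 6 libraries, and BCL2L1 with MCL1 made up 99.2% to 99.999% of the summed level of the 3 protective members. BCL2L2, a protective relative outside the 10 genes, is not in that sum. It was at 13.6 and 15.7 RPKM in the SR2211 pair. In the XY011 pair it was at 12.0 and 20.6 FPKM, and in the ENZ pair at 28.7 and 20.9 FPKM.

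BCL2L1 (gene 598), whose transcripts encode BCL-XL and a shorter death-promoting form that gene-level values do not separate, was the steadiest member. It was at 40.0 and 46.0 RPKM in the SR2211 pair, 55.4 and 50.9 FPKM in the XY011 pair and 56.3 and 56.3 FPKM in the ENZ pair. Its log2 change with XY011, -0.12, became 0.04 after centring on the median gene and 0.05 after quantile scaling, so it has no settled direction. The median gene of the XY011 pair itself lay at a log2 ratio of -0.16. MCL1 (gene 4170) encodes a short-lived protein and is itself the partner of NOXA. It went from 51.2 to 43.5 RPKM with SR2211 (log2 -0.23), from 36.4 to 55.2 FPKM with XY011 (log2 0.58) and from 71.5 to 64.2 FPKM with ENZ (log2 -0.15).

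The effector genes did not pass the size rule. BAX (gene 581), whose protein moves from the cytosol to mitochondria on activation, went from 17.1 to 11.1 RPKM with SR2211 and from 9.89 to 6.32 FPKM with XY011. The log2 changes were nearly equal, -0.58 and -0.57. In the ENZ experiment BAX stood at 92.6 FPKM in vehicle and 85.6 with ENZ (log2 -0.11), the highest member in both libraries of that experiment. BAK1 (gene 578), whose protein resides in the outer mitochondrial membrane, went from 14.2 to 10.2 RPKM with SR2211 (log2 -0.44), from 14.1 to 16.04 FPKM with XY011 (0.18) and from 12.8 to 11.3 FPKM with ENZ (-0.16).

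For the SR2211 pair the reads behind each value could be read back, and they show which members differed beyond counting error. The ratios of 3 members had a 95% interval above 1 and those of 5 an interval below 1. BBC3 rested on 16 vehicle reads and 94 SR2211 reads, and its ratio was 5.90 with an exact interval of 3.45 to 10.7. PMAIP1 had 65 and 187 reads and a ratio of 2.89 (2.17 to 3.89). The third above 1 was BCL2L1, at 845 and 967 reads and a ratio of 1.15 (1.05 to 1.26). BIK had the lowest ratio, 0.535 (0.357 to 0.791, 77 and 41 reads), followed by BAX at 0.648 (0.491 to 0.852, 138 and 89 reads). BAK1 was at 0.719 (0.592 to 0.872), BID at 0.754 (0.620 to 0.917) and MCL1 at 0.848 (0.791 to 0.910). The intervals of BCL2L11 (0.817 to 1.09, 405 and 380 reads) and BCL2 (0.300 to 2.61, 9 and 8 reads) included 1, and for BCL2 no difference was detectable at this depth. The intervals take the deposited scaling as exact, and ratios near 1 depend on it. After quantile scaling of the pair the log2 change of MCL1 was -0.08 rather than -0.23. That of BCL2L1 was 0.33 rather than 0.20, and no intervals were computed for that scaling. These intervals cover counting error only, not the spread between cultures, and reads without molecular identifiers are not independent molecules. The numbers are the smallest that give both values with a whole gene length, so the true numbers may be a multiple of them, with an unchanged ratio and a narrower interval.

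**Figure D3:**
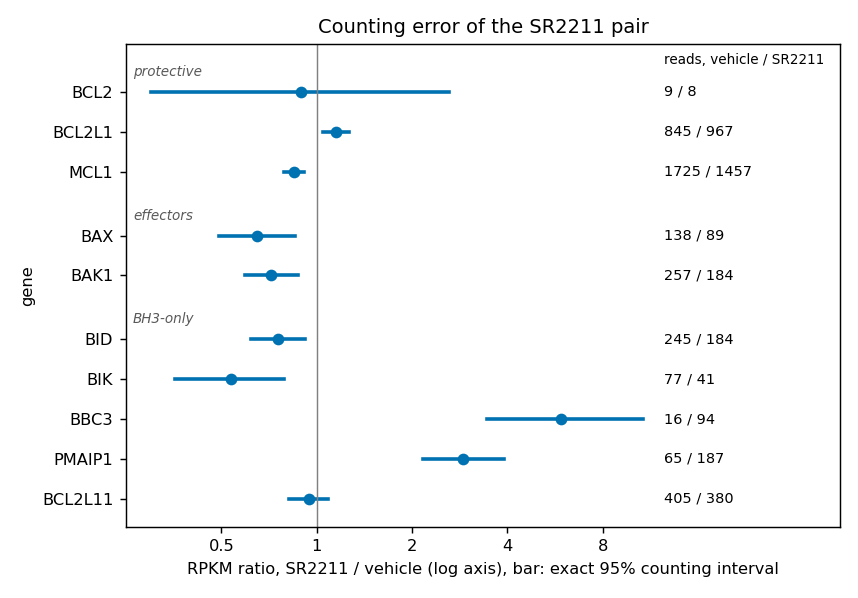
RPKM ratio of SR2211 to vehicle for each gene on a log axis, with the exact 95% counting interval as a bar and the reads in vehicle and SR2211 at the right. BBC3 (5.90) and PMAIP1 (2.89) lie far above 1, BCL2L1 just above it, and BIK, BAX, BAK1, BID and MCL1 below it.

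Which changes SR2211 and XY011 shared was tested with limma on the 4 libraries of their experiments, with experiment as a term. The error combined how far the compounds' changes lay apart with a spread borrowed across genes. BBC3 rose, with a shared log2 change of 2.04 (SE 0.21) and an adjusted p of 0.00693, and was higher in both experiments. It passed the filter on the mean through its treated libraries, its vehicles being at 1.05 RPKM and 0.440 FPKM. With no filter on low values its limma adjusted p was 0.0125. PMAIP1 rose too, by a log2 of 1.51 (SE 0.21, adjusted p = 0.010), also in both experiments. These were 2 of 9 members tested, while 8.84% of 12076 genes rose and 13.1% fell. Quantile scaling gave 1107 rising and 1085 falling genes in place of 1067 and 1583, and centring gave 1533 and 1464. BAX had a shared log2 change of -0.58 (SE 0.19, limma adjusted p = 0.0792) and did not pass, although its unadjusted limma p was 0.0234, and its adjusted p lay between 0.0571 and 0.129 over the alternatives. BID (-0.38, adjusted p = 0.198), BCL2L11 (0.30, 0.401), MCL1 (0.18, 0.633), BAK1 (-0.13, 0.701), BIK (-0.09, 0.867) and BCL2L1 (0.04, 0.903) did not pass either. The fit has 1 residual degree of freedom and treats both compounds as repeats of a class, so p-values rest on a spread borrowed across genes. With a pseudocount of 0.1 in place of 1 no gene passed, BBC3 having an adjusted p of 0.0603 and PMAIP1 of 0.0617. Over the other alternatives the adjusted p ranged from 0.00111 to 0.0156 for BBC3 and from 0.00260 to 0.0176 for PMAIP1, highest with quantile scaling.

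SR2211 and XY011 shared a dose and a time, so their changes can be compared, as 1 pair of compounds with no test of the difference. BBC3 and PMAIP1 were higher with both, which held for 3.25% of 11646 genes tested in both experiments, while 4.58% were lower with both and no member was. The difference between the compounds' log2 changes (SR2211 minus XY011) was -0.46 for BBC3 and -0.36 for PMAIP1. BIK was the member furthest apart, at -0.79 with SR2211 and 0.61 with XY011, a difference of -1.40. A difference of 1 or more was found in 6.05% of genes, and BIK was the 1 member of 9 to reach it. MCL1 (-0.82), BCL2L11 (-0.75) and BAK1 (-0.62) also had the lower change with SR2211, and BAX (-0.01) and BID (0.02) nearly the same change with both. The levels in the vehicles of these experiments differed by the same size in 11.0% of 12515 genes. That is a difference of levels normalised separately as RPKM and FPKM, so it does not measure the spread of a difference of changes. For BIK the vehicles themselves differed by 0.95, SR2211's being the higher, for PMAIP1 by 0.83 and for BBC3 by 0.51. ENZ was used at 20 µM, so where its values are set against the others, compound and dose cannot be told apart.

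The summed level of the 3 protective members was above that of the 5 BH3-only members in every library. These sums leave out relatives such as BAD (BH3-only) and BCL2L2 (protective). In the ENZ pair BAD stood at 92.5 and 105 FPKM, and BCL2L2 at 28.7 and 20.9. Sums with such genes included were not computed, so this order holds for the listed members only. Protective genes summed to 91.4 RPKM in vehicle and 89.6 with SR2211, and BH3-only genes to 36.0 and 40.9. In the XY011 pair the protective sum went from 92.1 to 106 FPKM and the BH3-only sum from 29.4 to 46.5. In the ENZ pair they went from 129 to 121 and from 71.3 to 63.3 FPKM. BH3-only level per protective level was thus 0.394 in vehicle and 0.457 with SR2211, 0.319 and 0.438 in the XY011 pair, and 0.553 and 0.523 in the ENZ pair.

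The make-up of the sum of the 5 BH3-only members, which leaves out BAD and BMF, also differed. BBC3 and PMAIP1 together were 14.2% of it in vehicle and 43.8% with SR2211, and 7.79% and 30.4% in the XY011 pair. In the ENZ pair their share was 15.4% and 15.3%. Effectors summed to 31.3 and 21.3 RPKM in the SR2211 pair, 23.95 and 22.4 FPKM in the XY011 pair and 105 and 97.0 FPKM in the ENZ pair. With the effectors counted as death-promoting too, the death-promoting level per protective level went from 0.737 to 0.694 with SR2211, from 0.580 to 0.649 with XY011 and from 1.37 to 1.32 with ENZ. For the 10 listed members, the SR2211 and XY011 pairs thus went in opposite directions on that measure. It leaves out relatives at levels like those of the members. BAD went from 17.5 to 24.3 RPKM with SR2211 and from 7.49 to 7.32 FPKM with XY011. The protective BCL2L2 went from 13.6 to 15.7 RPKM and from 12.01 to 20.6 FPKM. The measure was not computed with such genes included, so whether the directions would stay opposite was not tested.

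**Figure D4:**
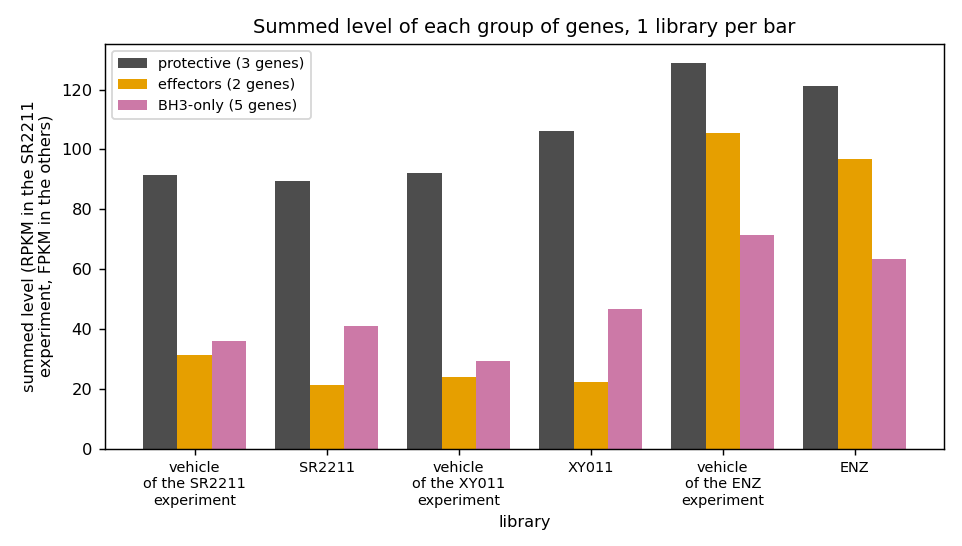
Summed level of the 3 protective, 2 effector and 5 BH3-only genes in each library (RPKM in the SR2211 experiment, FPKM in the others), each bar being 1 library without error. The BH3-only bar is higher with SR2211 (40.9 against 36.0) and XY011 (46.5 against 29.4) than in their vehicles, and lower with ENZ (63.3 against 71.3); bars of different experiments are not on a common scale.

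The order of levels was alike at its ends in all libraries, with MCL1 and BCL2L1 among the 3 highest members and BCL2 the lowest. BBC3 was next to lowest in all 3 vehicles. PMAIP1 moved most in rank, from the eighth place in vehicle to the third with SR2211. Neighbours in this order often lay within the spread of the vehicles, as BCL2L1 (40.0 to 56.3) and MCL1 (36.4 to 71.5) did. Vehicle levels differed 11.6-fold for BBC3, 9.36-fold for BAX and 6.04-fold for BCL2, highest to lowest, but 1.11-fold for BAK1. For BBC3, BAX and BCL2 the ENZ vehicle was the highest. That table held deposited values summing to 1729420 in vehicle, against 402107 and 479264 in the other vehicles, and whether its scale set these differences was not tested.

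Transcription factors and cofactors known to act on BH3-only genes were the list of apoptosis genes in which most members rose. In the class fit 7 of 10 tested rose and 1 fell (median log2 change 1.33), where 8.84% of all genes rose and 13.1% fell. This list was chosen with earlier results of these data known, so its count is descriptive and no test of the list. DDIT3, which encodes CHOP, went from 20.2 to 302 RPKM with SR2211 and from 22.5 to 619 FPKM with XY011, but from 28.4 to 44.5 FPKM with ENZ. ATF4, a master factor of the amino acid response, went from 216 to 606 RPKM, from 320 to 1470 FPKM and from 307 to 467 FPKM. ATF3 (log2 4.23), the pseudokinase gene TRIB3 (3.07), JUN (1.48), FOXO3 (1.18) and FOXO1 (1.01) were the others that rose. E2F1, which drives S-phase genes, fell by 1.65. With ENZ 0 of 11 members of this list were called by size, where 8.37% of all genes were.

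In the list of apoptosome and caspase genes, 4 of 13 fell and 0 rose in the class fit (median -0.27), beside 13.1% of all genes falling and 8.84% rising. This list also holds caspases that act before the mitochondrial step, such as CASP8. Of those that fell, CYCS, which encodes cytochrome c, and ENDOG, a mitochondrial nuclease gene, had shared log2 changes of -0.83 and -0.84, and neither passed after quantile scaling. The initiator caspase gene CASP2 was at -0.74 with a limma adjusted p of 0.045, but it did not pass after quantile scaling (0.0711), after centring (0.0614) or with no filter on low values (0.0524). The apoptosome gene APAF1 (log2 0.12) did not pass. Among 5 genes tested of the IAP (inhibitor of apoptosis) family, 1 fell and 0 rose. This was BIRC5, encoding survivin, from 77.4 to 26.4 RPKM and from 53.2 to 21.8 FPKM. NAIP went from 5.06 to 4.11 RPKM and from 4.37 to 1.52 FPKM and did not pass.

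Of 10 death receptor genes tested, 2 rose and 2 fell in the class fit, where 8.84% of all genes rose and 13.1% fell, and so few calls set the list apart in neither direction. TNFRSF10B, which encodes the TRAIL receptor DR5, went from 39.3 to 78.4 RPKM with SR2211 and from 33.5 to 64.9 FPKM with XY011 (shared log2 change 0.96). TNFRSF1A, a TNF receptor gene, rose by 0.91. FADD, the adaptor that recruits caspase 8, fell by 0.86 (limma adjusted p = 0.0483) and TNFSF10, the TRAIL gene, by 0.73 (adjusted p = 0.046). Neither passed after quantile scaling (0.0725 and 0.0611) or with no filter on low values (0.0609 and 0.0534). TNFSF10 was also lost with a pseudocount of 5 (0.185) and with a limma trend (0.0847), and passed under 2 of 7 alternatives. FAS went from 1.39 to 4.64 FPKM with XY011 and from 1.505 to 2.36 RPKM with SR2211, and did not pass (adjusted p = 0.0627). No gene of the 9 tested among other BCL2 relatives rose and 1 fell, BCL2L12 (log2 -0.83). BMF, another BH3-only gene, went from 1.87 to 3.86 RPKM with SR2211 and from 2.39 to 0.770 FPKM with XY011. Of 5 tested genes that govern MCL1 turnover, 0 rose and 0 fell. As for the members, no gene of these lists passed with a pseudocount of 0.1. With ENZ no gene of the 6 lists reached the size rule.

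**Figure D5:**
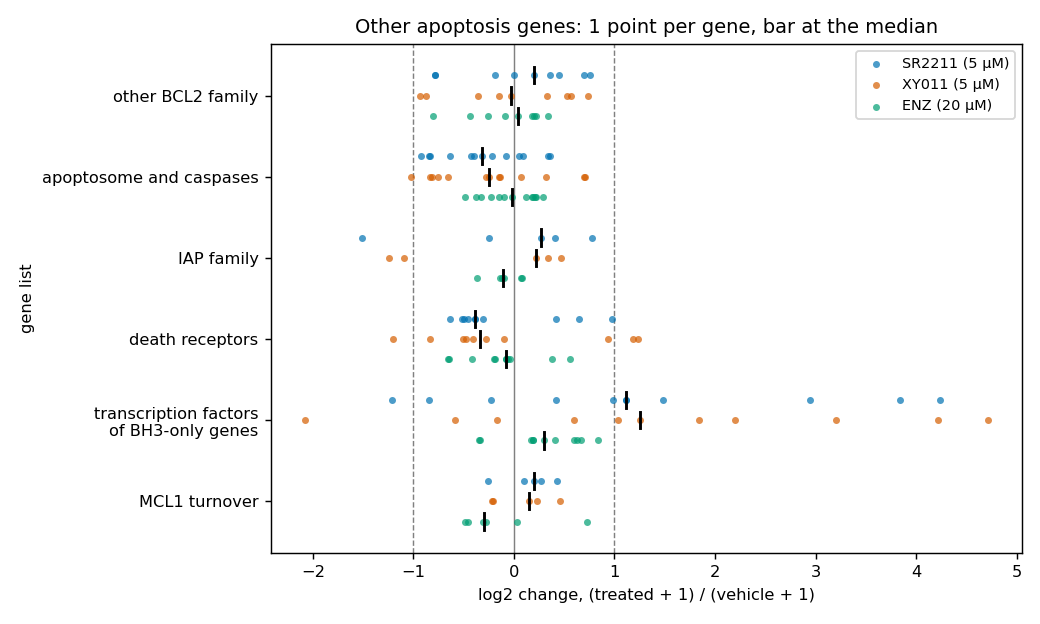
Log2 change of the other apoptosis genes at 1 or more in either library, 1 point per gene, by list and compound, with a black bar at each median and dashed lines at 1 in either direction. The transcription factor list extends to 4.24 with SR2211 and 4.72 with XY011, while the ENZ points of every list stay between the dashed lines.

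The genes most like BBC3 over the 3 log2 changes were BEX4 (distance 0.19 in log2 units), JMY (0.24) and RB1CC1 (0.33). BEX4 had changes of 1.65, 2.19 and 0.21 with SR2211, XY011 and ENZ. The comparison covered 9277 genes at a mean of 5 or more over the 6 libraries, of which 13 were within 0.5 of BBC3. By the same rule ST13, ELAC2 and MBD4 were nearest to BCL2. BCL2 was below 1 in 4 libraries, so with 1 added to each value these changes had to lie near 0, and 1826 genes lay within 0.5. Nothing is read from that likeness.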

How the data were processed

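RNA was poly(A)-selected and libraries were made with a TruSeq kit, per the labels' protocols. The authors deposited RPKM values for the SR2211 experiment and FPKM values for the XY011 and ENZ experiments, per the file headers. Tools named in the submitters' processing notes are BWA, Bowtie, Cufflinks and Cuffdiff, with GRCh37 and hg19 as builds. Their versions, their use per table, the gene annotation and strand handling were not given in the sources used here, and reads of overlapping or antisense genes may be mixed. A missing signal was coded as 0.01 (SR2211), 0.001 (XY011) or 0 (ENZ).

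The first pair of experiments was joined by Entrez identifier (15713 genes) and ENZ by symbol (13438 genes in all 3), and 96 repeated ENZ lines were summed. Small RNA genes were left out. Genes at 1 or more in either library were tested on log2(value + 1), and limma 3.58.1 (R 4.3.3, no trend) with Benjamini-Hochberg adjustment at 0.05 was run on genes with a mean of 1 or more. Its prior had 5.20 degrees of freedom and an SD of 0.211. Nothing states that libraries came from separate cultures.

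In the SR2211 pair, the values of 26 and 35 microRNA genes gave the worth of 1 read (100% and 97.1% whole within 0.01 read). The shortest whole length up to 60000 bases giving whole reads in both libraries was taken, which succeeded for 12136 of 12139 genes. On simulated data for that pair (1000 genes) the ratio was exact in 100% and the reads in 83.9%, and 0.3% of values without whole reads matched by chance. Intervals are exact binomial (Clopper-Pearson). The scripts were tested on simulated data.

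Named genes were all 10 members, DDIT3 and ATF4, up to 3 genes past the size rule per list with the largest mean change, and the 3 genes nearest to BBC3 and to BCL2. Some genes and a motif that the rules would name are not reported here. Other genes were named to say which passed the class fit, or as examples, after their values were seen. The members and lists were chosen with earlier results of these data known, and the promoter motifs after the values were seen. Alternatives covered the pseudocount, scaling, filters, size rule, repeated lines and the fit.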

Additional observations from a re-analysis of the deposited data

How the results depend on the processing

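Calls of the members depended on the pseudocount and the size rule, not on scaling. With a pseudocount of 5, 0 members were called with SR2211 (BBC3 at a log2 change of 0.89, PMAIP1 at 0.88) and 1 with XY011, BBC3, with PMAIP1 at 0.95. At a 1.5-fold change 3 members were called with SR2211 (BIK added, lower), 5 members were called with XY011 (MCL1, BIK and BCL2L11 added, all higher) and 1 with ENZ, BCL2L11, which was lower. In the class fit 0 members passed with a pseudocount of 0.1 and 1, PMAIP1, at a mean of 5 or more, where BBC3 was not tested. Why the pseudocount of 0.1 removed every call was not tested. Centring, quantile scaling, no filter, a higher filter and the kept ENZ line left the counts of called members at 2, 2 and 0.

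Over all genes, 1327 were called with SR2211, 2627 with XY011 and 1612 with ENZ. These became 557, 1059 and 458 with a pseudocount of 5, and 3778, 5665 and 4633 at 1.5-fold. With a pseudocount of 0.1 they were 2027 for SR2211 and 2770 for ENZ, and at 5 or more in either library 985 for ENZ. The class fit called 2650 genes, and 0 with a pseudocount of 0.1, at which 3 members had an unadjusted p under 0.05.

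Doubling the recovered reads, an alternative chosen after seeing the data, left 8 of 10 intervals excluding 1. Leaving out either compound leaves the class fit no residual degree of freedom, so it was not run. Depth limits BCL2 most, with 9 and 8 reads in the SR2211 pair. The experiment term of the class fit already pairs each treated library with its vehicle.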
